A study of Mus musculus with 29 samples.

Results

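The 7 genes Reln, Grin2b, Auts2, Ntng1, Cdh8, Cask and Cntn2, which have been reported as targets or partners of the transcription factor Tbr1, were followed in mouse prefrontal cortex at postnatal day 40, by bulk RNA sequencing. The 7 were taken by symbol, though with earlier results of these data known. All of them were found among the 18240 genes of the table and passed the filter on low values. All mice were C57BL/6J, females and males. Every title names the line Tbr1+/K228E and then marks the library WT or HT. WT vehicle (8 libraries, 4 female and 4 male) was wild type and received vehicle. The other groups were heterozygous for Tbr1 K228E, a missense allele in the DNA-binding T-box, and are called HT. HT mice received vehicle (6 libraries, 3 female and 3 male), fluoxetine, a serotonin reuptake inhibitor (8 libraries, 4 female and 4 male), or lithium, a mood stabiliser (7 libraries, 3 female and 4 male). Neither drug was given to WT mice in these libraries, so a drug response of WT tissue was not measured, and no dose, route or duration is given in the labels. The labels number replicates without saying that each comes from its own animal, so p-values measure the spread between these libraries, which may in part be technical.

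Tbr1 is a T-box factor of glutamatergic neurons of the deep cortical layers, where during development it helps to set layer 6 identity and the path of corticothalamic axons. Reln encodes reelin, a secreted glycoprotein that guides neuronal migration and comes in the adult cortex mainly from interneurons. Cask is a membrane-associated scaffold that can enter the nucleus and act with Tbr1 on its targets, Reln and Grin2b among them. The others encode adhesion molecules of axons and synapses (Ntng1, Cdh8, Cntn2) or a nuclear regulator of neuronal genes (Auts2).

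T-box factors bind sites built around the core AGGTG, most strongly in the longer form AGGTGTGA. The 250 bases before the RefSeq start were therefore read for Tbr1 and for the 4 members with such a window, Reln, Ntng1, Cntn2 and Cdh8. They are printed for Tbr1 and the 3 of these whose level moved with Tbr1 from library to library (see the slopes). The windows come from RefSeq on GRCm38.p6 and run from 5′ to 3′ on the strand of the gene, with AGGTG in capitals. They lie at chr2:61804203-61804452 (plus strand) for Tbr1, chr5:22344706-22344955 (minus strand) for Reln, chr3:110143473-110143722 (minus strand) for Ntng1 and chr1:132542941-132543190 (minus strand) for Cntn2.
Tbr1: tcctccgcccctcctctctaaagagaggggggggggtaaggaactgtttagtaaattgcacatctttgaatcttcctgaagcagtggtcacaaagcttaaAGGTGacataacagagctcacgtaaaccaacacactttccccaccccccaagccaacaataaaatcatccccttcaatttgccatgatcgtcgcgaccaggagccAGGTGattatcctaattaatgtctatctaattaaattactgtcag
Reln: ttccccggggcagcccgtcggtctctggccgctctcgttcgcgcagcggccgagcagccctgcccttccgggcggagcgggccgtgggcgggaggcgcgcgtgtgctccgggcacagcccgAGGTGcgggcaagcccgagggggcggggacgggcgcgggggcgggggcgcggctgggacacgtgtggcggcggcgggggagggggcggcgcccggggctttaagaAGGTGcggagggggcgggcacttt
Ntng1: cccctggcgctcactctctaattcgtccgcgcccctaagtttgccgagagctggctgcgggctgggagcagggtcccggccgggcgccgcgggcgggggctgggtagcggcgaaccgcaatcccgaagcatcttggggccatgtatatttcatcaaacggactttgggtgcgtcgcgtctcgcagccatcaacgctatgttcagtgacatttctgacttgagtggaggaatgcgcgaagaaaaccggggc
Cntn2: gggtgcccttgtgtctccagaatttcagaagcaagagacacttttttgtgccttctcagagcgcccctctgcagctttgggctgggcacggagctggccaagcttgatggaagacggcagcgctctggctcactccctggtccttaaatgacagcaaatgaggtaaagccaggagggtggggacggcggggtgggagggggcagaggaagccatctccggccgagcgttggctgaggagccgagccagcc
Reln carried AGGTG at 129 and 24 bases before its start, and Tbr1 carried it at 150 and 45 bases before its own. Ntng1, Cntn2 and Cdh8 had no match in this window on either strand. Of 32851 windows of the same length, 46.0% held AGGTG on at least 1 strand, so a match alone is common. The forms AGGTGTGA (1.12% of windows), AGGTGNGA (4.66%) and GGTGTG (16.3%), which overlap AGGTG or each other, were in none of these 5 windows. The Reln window was 80.0% G and C, against a median of 52.4% over all windows. Windows for Grin2b, Auts2 and Cask were not used here. The RefSeq start of Tbr1, Ntng1 and Cntn2 lies inside the longer gene interval of GENCODE given further on, so these windows precede the RefSeq start and not the outer end of that interval. A match describes letters and not binding.

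Libraries held 22.81 M to 31.71 M reads in genes, and the values are read counts divided by a size factor per library, called normalised counts here. The labels give the same batch for every library, and markers of upper layers, layer 5 and layer 6 were present in each. Markers of neighbouring tissue differed between libraries of the same group: the summed normalised count of 12 olfactory genes ran from 2779 to 23262 in WT vehicle, from 4910 to 15827 in HT vehicle, from 3213 to 21046 in HT fluoxetine and from 1811 to 12093 in HT lithium. Of those 12 genes, Ms4a15 was the only gene at 0 in any library. The sum of 10 striatal genes ran from 6577 to 25086 over the HT fluoxetine libraries and from 6636 to 8371 over HT vehicle. In 9 libraries the mean of either list exceeded the median library by over 1 (log2).

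The members differed widely in level. Per kilobase of exon, mean normalised counts over the 29 libraries were 781 ± 67.7 (SD) for Grin2b, 369 ± 50.9 for Cntn2, 315 ± 16.7 for Cask, 158 ± 17.5 for Cdh8, 141 ± 31.8 for Reln, 95.1 ± 8.53 for Auts2 and 94.3 ± 23.0 for Ntng1, with Tbr1 at 701 ± 139. Grin2b lay above Tbr1 in 19 of 29 libraries, Cntn2 above Cask in 22, Cdh8 above Reln in 20 and Auts2 above Ntng1 in 13, so these neighbours in the order overlapped. Tbr1 lay above Cntn2, Cask above Cdh8 and Reln above Auts2 in all 29. The lowest read count of any member in a library was 454, for Ntng1. The part of counting error in the spread between libraries was not determined.

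Tbr1 (ENSMUSG00000035033, chr2:61802930-61814114, plus strand) set the scale for what follows. Its normalised count was 2151 to 3432 in WT vehicle (median 3035), 3728 to 4593 in HT vehicle (median 3919), 2858 to 4766 in HT fluoxetine (median 4275) and 3777 to 4738 in HT lithium (median 4533). Every HT vehicle and HT lithium library was above every WT library, and HT fluoxetine female 1, at 2858, was the HT library inside the WT range. Tbr1 was higher in HT vehicle than in WT vehicle by 0.52 ± 0.09 (log2, SE; limma adjusted p = 0.0164), and the difference from WT was 0.54 ± 0.08 in HT fluoxetine (limma adjusted p = 0.00504) and 0.63 ± 0.09 in HT lithium (limma adjusted p = 0.000326). The call in HT vehicle was lost without HT vehicle female 1 (limma adjusted p = 0.0643), without HT vehicle male 3 (0.0963) and without the 9 libraries with high markers (0.0504), at differences of 0.47, 0.47 and 0.52. The call in HT fluoxetine was lost when only the groups compared were fitted (limma adjusted p = 0.0578, at 0.54). Against HT vehicle, Tbr1 was at 0.02 ± 0.09 with fluoxetine (limma adjusted p = 0.969) and at 0.12 ± 0.09 with lithium (0.644). Counts per gene do not tell the K228E transcript from the wild-type one. In bulk tissue, fewer cells of a type and less RNA per cell cannot be told apart, which holds for every level given here.

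Limma called none of the 7 members in any comparison of genotype or drug. It called at most 1.93% of all genes in these comparisons, so a count of 0 of 7 is near the share of all genes. The count therefore does not set the members apart from other genes. In HT vehicle against WT vehicle limma called 0 of 7, beside 0.207% of the 17881 genes tested. Cdh8 and Cask had an unadjusted p under 0.05 there, and edgeR and DESeq2 on recovered reads called 0 of 7. For fluoxetine against vehicle in HT limma called 0 of 7 (0% of all genes, and 0 members at an unadjusted p under 0.05), as it did for lithium against vehicle (0%, with Reln at an unadjusted p under 0.05) and for lithium against fluoxetine (0%, with 0 members under that p). In HT fluoxetine against WT vehicle the count was 0 of 7 beside 0.19% of genes (Cdh8 under an unadjusted 0.05), and in HT lithium against WT vehicle 0 of 7 beside 1.9% (Cask, Cdh8 and Reln under it). For the mean of the 3 HT groups against WT vehicle limma called 0 of 7 beside 1.93% of genes, with Cdh8 and Cask under an unadjusted 0.05, and DESeq2 called 1, Cdh8. Apart from that member, edgeR and DESeq2 also gave 0 in these comparisons. The median difference of the 7 was -0.01 in HT vehicle against WT vehicle and -0.02 for the mean of the HT groups, against 0.00 and -0.00 for all genes. These comparisons share libraries and are not independent of each other.

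**Figure D1:**
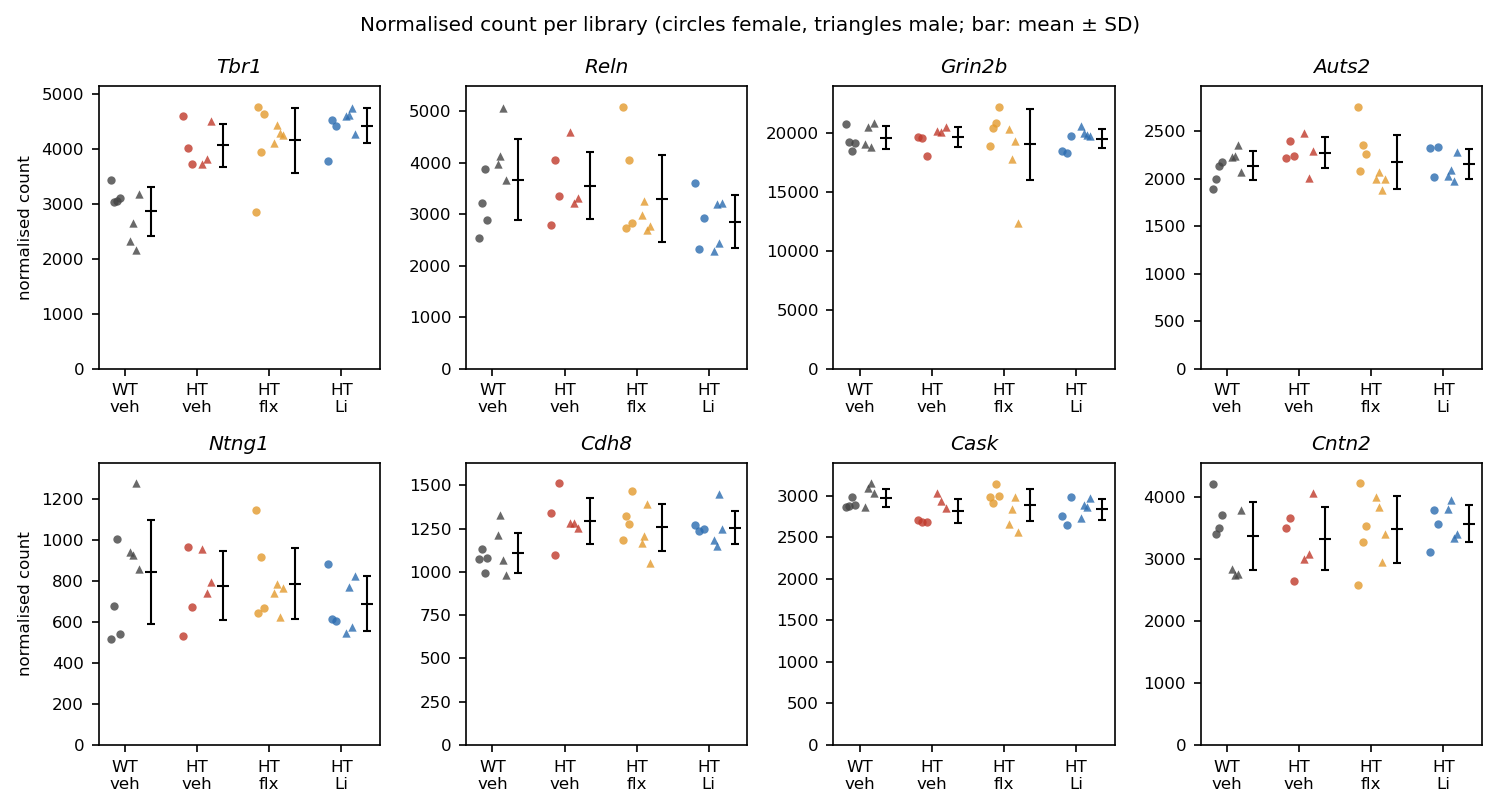
Normalised count of Tbr1 and the 7 members in each of 29 libraries, by group (WT and HT vehicle, HT fluoxetine, HT lithium), with circles for females, triangles for males and bars for mean ± SD. Tbr1 is higher in the HT groups, with HT fluoxetine female 1 at 2858 as the exception, while the groups overlap for all 7 members and Grin2b has a low library at 12317.

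Reln, the secreted member, overlapped between all groups. Reln (ENSMUSG00000042453, chr5:21884454-22344702, minus strand) had normalised counts of 2533 to 5070.2 in WT vehicle (median 3771), 2791 to 4588 in HT vehicle (median 3329), 2696 to 5084 in HT fluoxetine (median 2904) and 2277 to 3603 in HT lithium (median 2917). The lithium libraries sat low, and 3 of 7 lithium libraries lay below every HT vehicle library. The difference was -0.04 ± 0.14 (log2, SE) between HT vehicle and WT vehicle, with a 95% interval from -0.32 to 0.24 (limma adjusted p = 0.947). Lithium minus vehicle in HT was -0.31 ± 0.14 with an unadjusted p of 0.0376, and did not pass (limma adjusted p = 0.416). The olfactory marker mean was also lowest in HT lithium, at -0.83 ± 1.57 (log2 about the mean of all libraries, SD, n = 7) against 0.43 ± 0.66 in HT vehicle. With the striatal and olfactory marker means in the fit, the Reln difference between lithium and vehicle was -0.05 ± 0.07 (limma adjusted p = 0.862), and the part of the olfactory tissue in it was not tested further.

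Ntng1, which encodes netrin-G1, a membrane-anchored protein of axons that include thalamocortical ones, spread most relative to its level. Ntng1 (ENSMUSG00000059857, chr3:109780040-110144011, minus strand) ran from 519 to 1277 in WT vehicle (median 892), from 533 to 967 in HT vehicle (median 769), from 624 to 1148 in HT fluoxetine (median 755) and from 546 to 885 in HT lithium (median 613). The groups overlapped, and the highest and the lowest library were both WT. Its difference between HT vehicle and WT vehicle was -0.09 ± 0.16 (log2, SE), with a 95% interval from -0.41 to 0.24 (limma adjusted p = 0.878).

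Cdh8, a type II classical cadherin of neuronal contacts, came closest to a genotype difference. Cdh8 (ENSMUSG00000036510, chr8:99024471-99416471, minus strand) had normalised counts of 984 to 1331 in WT vehicle (median 1078), 1098 to 1511 in HT vehicle (median 1280.0), 1049 to 1467 in HT fluoxetine (median 1241) and 1147 to 1449 in HT lithium (median 1246). The groups overlapped, but 6 of 6 HT vehicle, 7 of 8 HT fluoxetine and 7 of 7 HT lithium libraries lay above the WT median. HT vehicle minus WT vehicle was 0.22 ± 0.07 (log2, SE; unadjusted p = 0.0056, limma adjusted p = 0.187), and the mean of the 3 HT groups minus WT vehicle was 0.19 ± 0.06 (limma adjusted p = 0.0747, 95% interval 0.08 to 0.31). The second value passed in 6 of 48 alternatives. These were DESeq2 (adjusted p = 0.0349), the myelin marker mean as covariate (limma, 0.0419), the layer 6 marker mean as covariate (limma, 0.0283), and leaving out HT fluoxetine female 1 (0.0467), HT vehicle female 2 (0.0301) or WT vehicle male 2 (0.0370). Over all 48 the Cdh8 difference stayed between 0.11 and 0.23, and its adjusted p between 0.0283 and 0.532.

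Cntn2 encodes contactin-2, a membrane-anchored immunoglobulin-family protein of axons and of the glial membrane beside the nodes of myelinated fibres. Cntn2 (ENSMUSG00000053024, chr1:132509427-132543256, minus strand) had normalised counts of 2734 to 4212 in WT vehicle (median 3448), 2648 to 4065 in HT vehicle (median 3296), 2579 to 4219 in HT fluoxetine (median 3469) and 3112 to 3959 in HT lithium (median 3567). The groups overlapped over most of their ranges. HT vehicle minus WT vehicle was -0.01 ± 0.10 (log2, SE), with a 95% interval from -0.23 to 0.20 (limma adjusted p = 0.974).

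Grin2b, a glutamate-binding subunit of the NMDA receptor, had the highest level per kilobase of the 7 and 1 library far from the rest. Grin2b (ENSMUSG00000030209, chr6:135713233-136173511, minus strand) ran from 18422 to 20833 in WT vehicle (median 19149.6), from 18032 to 20447 in HT vehicle (median 19808), from 12317 to 22168 in HT fluoxetine (median 19777) and from 18289 to 20576 in HT lithium (median 19735). HT fluoxetine male 4, at 12317, lay far below the other 28 libraries, and the rest of the groups overlapped. HT vehicle minus WT vehicle was 0.01 ± 0.07 (log2, SE), with a 95% interval from -0.14 to 0.15 (limma adjusted p = 0.987). An antisense gene in the same interval, Gm26653, had a mean of 27.7 normalised counts, against 19402 for Grin2b. The strand setting of the counts is not given in the sources used here, and whether the 2 genes share reads was not tested.

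In HT fluoxetine male 4 the shortfall was shared by other genes with long exons. Across 10513 genes with a mean log2 value of at least 8, the difference of that library from the median of the others fell with exon length, at a Spearman rho of -0.64 across genes, against -0.30 to 0.41 in the other 28 libraries. Genes are not independent replicates. The median difference was -0.20 for 1324 genes with at least 10 kb of exon and 0.15 for 939 genes with less than 2 kb. Grin2b, with 24.8 kb of exon, was at -0.68 there (log2 difference), Reln with 23.7 kb at -0.21, Auts2 with 22.9 kb at -0.14 and Tbr1 with 5.49 kb at 0.10. The members did not follow length strictly: Cdh8, with 7.74 kb, was at -0.24, below Reln and Auts2, Cask with 9.14 kb at -0.17, Cntn2 with 9.30 kb at -0.04 and Ntng1 with 8.24 kb at 0.02.

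**Figure D2:**
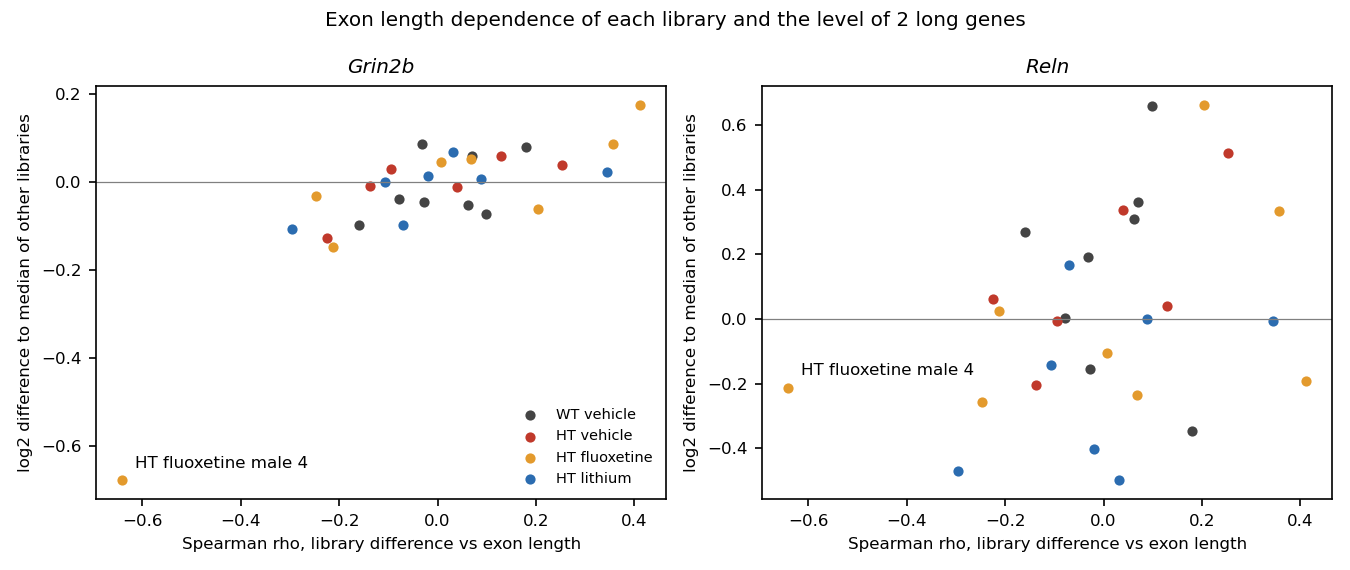
Log2 difference of Grin2b (left) and Reln (right) in each library from the median of the other libraries, against the Spearman rho between that library's differences and exon length over 10513 genes; 1 point per library, coloured by group. HT fluoxetine male 4 stands alone at a rho of -0.64 with Grin2b at -0.68, and Reln in the same library is at -0.21.

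Auts2, which in the nucleus joins a Polycomb complex and is linked to transcription of neuronal genes, gave no genotype difference past the test. Auts2 (ENSMUSG00000029673, chr5:131437333-132543344, minus strand) had normalised counts of 1888 to 2357 in WT vehicle (median 2153.5), 2005 to 2483 in HT vehicle (median 2266), 1876 to 2754 in HT fluoxetine (median 2073) and 1972 to 2336 in HT lithium (median 2089.7). The groups overlapped, and the top value belonged to HT fluoxetine female 1, the HT library with the lowest Tbr1. HT vehicle minus WT vehicle was 0.09 ± 0.06 (log2, SE), with a 95% interval from -0.03 to 0.21 (limma adjusted p = 0.549).

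Cask, the reported partner, lies on the X chromosome and was the steadiest member. Cask (ENSMUSG00000031012, chrX:13517080-13851367, minus strand) ran from 2869 to 3149.9 in WT vehicle (median 2942), from 2685 to 3038 in HT vehicle (median 2782), from 2569 to 3149 in HT fluoxetine (median 2950.2) and from 2648 to 2989 in HT lithium (median 2860.2). The groups overlapped, with 4 of 6 HT vehicle libraries below every WT library. HT vehicle minus WT vehicle was -0.08 ± 0.03 (log2, SE; unadjusted p = 0.0314, limma adjusted p = 0.349). The mean of the 3 HT groups minus WT vehicle was -0.06 ± 0.03 (limma adjusted p = 0.234). Gpr34, a gene on the opposite strand within the Cask interval, averaged 252 normalised counts.

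No member was called by limma in a comparison that involves sex. Within females limma called 0 of 7 members for HT vehicle against WT vehicle, beside 0% of genes (Cask and Cdh8 under an unadjusted 0.05), and within males 0 of 7 beside 0% (0 members under it). The female minus male difference in the effect of genotype, and in that of lithium, also gave 0 of 7 beside 0% each, with 0 members at an unadjusted p under 0.05, and edgeR and DESeq2 called 0 in all 4. For the female minus male difference of the fluoxetine effect limma called 0 of 7 beside 0.106% of genes, with Cask and Grin2b at an unadjusted p under 0.05. Cask was followed further in that last comparison, with its values known. Its normalised counts were 2917, 2987, 2998 and 3149 in HT fluoxetine females, all above the 2685, 2689.7 and 2709 of HT vehicle females. Those HT vehicle female libraries lay close together, with an SD of 12.8 (n = 3). The Cask SD was 56.2 to 183.5 in the other groups of genotype, treatment and sex. Whether so small a spread arose by chance was not tested. The share of all genes separated in this way was not determined. In males the HT fluoxetine libraries lay at 2569, 2666, 2838 and 2983, and the HT vehicle libraries at 2855, 2937 and 3038, so that they overlapped with fluoxetine on the lower side. The female minus male difference was 0.25 ± 0.07 (log2, SE; unadjusted p = 0.000917), which did not pass with limma (adjusted p = 0.12) and passed with DESeq2 (adjusted p = 0.0297), which called 1.11% of all genes in this comparison. Without HT fluoxetine male 4 or any other single library, the limma adjusted p stayed between 0.0761 and 0.325. The female minus male difference for Grin2b, 0.35 ± 0.14 (limma adjusted p = 0.266), includes the low HT fluoxetine male 4.

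**Figure D3:**
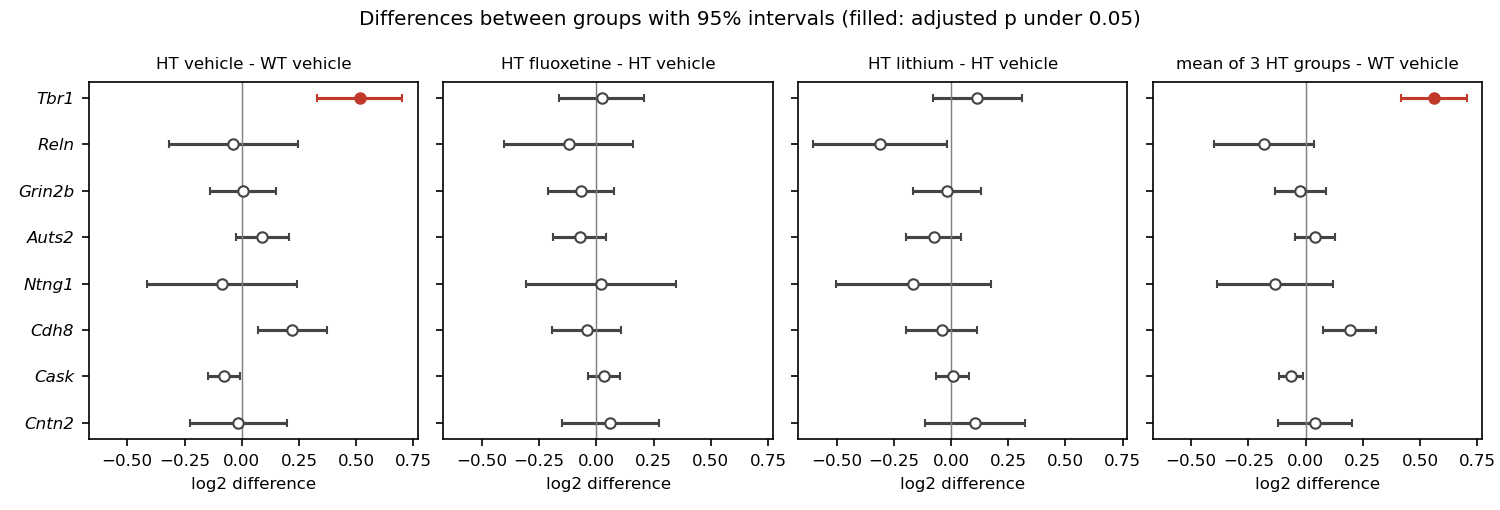
Log2 differences of Tbr1 and the 7 members with 95% intervals from limma in 4 comparisons; filled points passed an adjusted p of 0.05. Tbr1 passed against WT vehicle (0.52 and 0.56), and no member passed in any of the 4, with Cdh8 at 0.22 and 0.19.

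Although no member passed between groups with limma, several moved with Tbr1 from library to library within groups. A slope was fitted for each gene on the log2 level of Tbr1, together with a mean for each of the 8 groups of genotype, treatment and sex. It gives the log2 change of the gene per log2 unit of Tbr1 within groups. Limma called 4 of 7 members, beside 24.9% of the 17880 other genes (13.5% higher and 11.4% lower with Tbr1), and edgeR and DESeq2 called the same number. Reln (-1.14 ± 0.21, SE; limma adjusted p = 0.000183), Ntng1 (-1.18 ± 0.27; 0.00175) and Auts2 (-0.40 ± 0.10; 0.00345) were lower where Tbr1 was higher. Cntn2 was higher with Tbr1, at 0.89 ± 0.15 (limma adjusted p = 6.69e-05). Grin2b (0.24 ± 0.15; limma adjusted p = 0.249), Cdh8 (0.08 ± 0.16; 0.776) and Cask (-0.03 ± 0.07; 0.812) did not pass, with 95% intervals from -0.06 to 0.54, from -0.25 to 0.41 and from -0.18 to 0.12. Without HT fluoxetine male 4, Grin2b passed at 0.24 (limma adjusted p = 0.0103). Without HT fluoxetine female 1, Auts2 no longer passed (-0.33; limma adjusted p = 0.0858), and the share of all genes called fell to 14.8%.

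**Figure D4:**
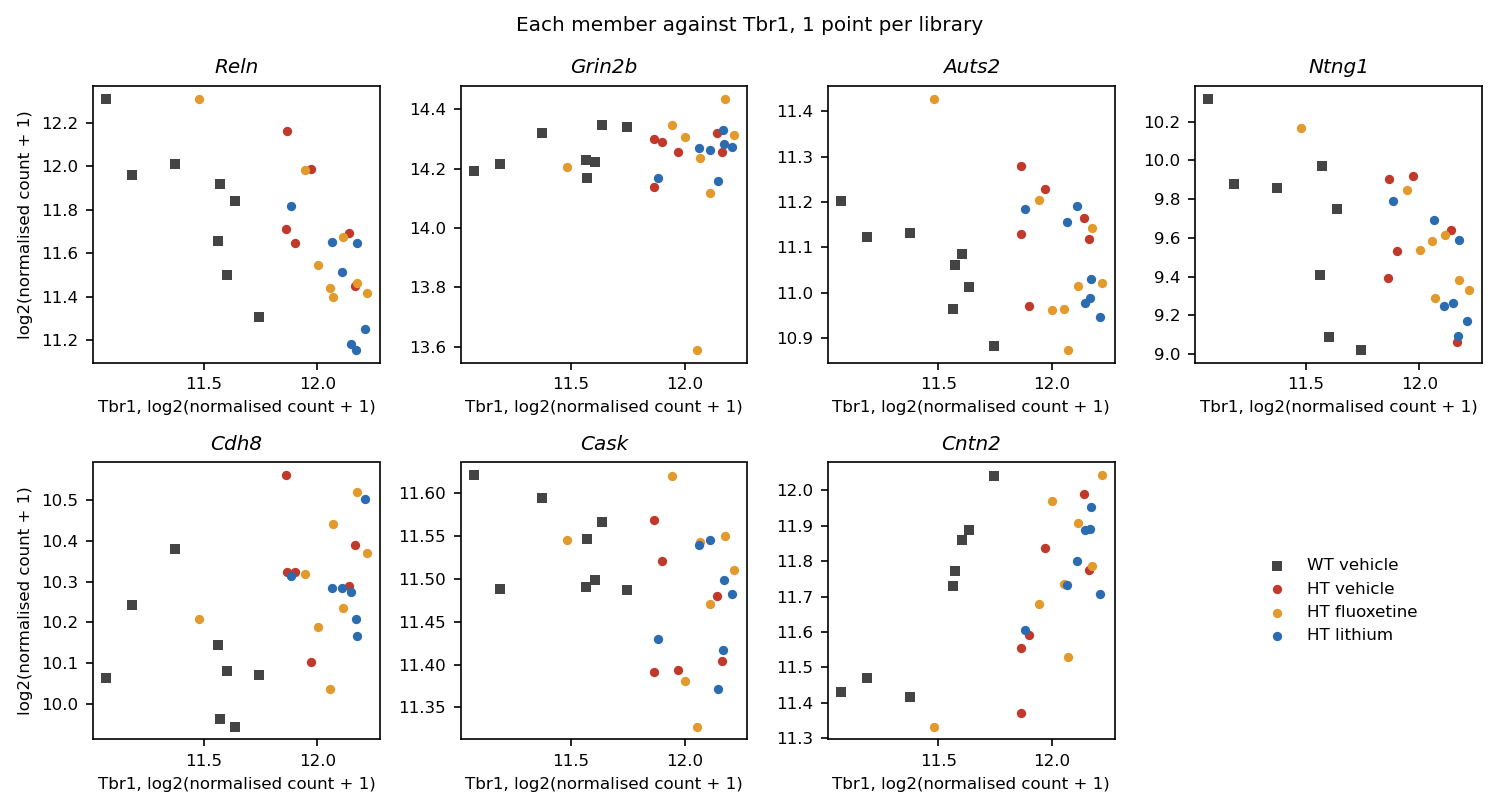
Log2(normalised count + 1) of each member against that of Tbr1, 1 point per library, with WT libraries as squares and HT libraries as circles coloured by treatment. Reln, Ntng1 and Auts2 slope down and Cntn2 slopes up within both genotypes, while Cdh8 and Cask show no slope past the test and Grin2b, at 0.24, passed it after its 1 low library was left out.

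The relation was also read within each genotype. Over the 21 HT libraries, log2 Reln and log2 Tbr1 had a Pearson r of -0.80 (permutation p = 3e-05, adjusted over 14 relations 0.00021) and a Spearman rho of -0.75 (permutation p = 0.00017, adjusted 0.00238). Without HT fluoxetine female 1 and HT vehicle female 3, the libraries farthest from the median of Tbr1, r was -0.75. Over the 8 WT libraries r was -0.84 (exact permutation p = 0.00714, adjusted 0.0143), rho was -0.86 (exact permutation p = 0.0107, adjusted 0.030), and r was -0.78 without WT males 1 and 3. Ntng1 had an r of -0.74 in HT (permutation p = 0.00011, adjusted 0.000513; rho -0.65, permutation p = 0.00204, adjusted 0.00781) and -0.73 without the same libraries. In WT its r was -0.77 (exact permutation p = 0.028, adjusted 0.0489; rho -0.76, exact permutation p = 0.0368, adjusted 0.0735) and -0.61 without males 1 and 3.

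For Auts2, r in HT was -0.64 (permutation p = 0.00215, adjusted 0.00602; rho -0.44, permutation p = 0.0491, adjusted 0.0860). It dropped to -0.39 without HT fluoxetine female 1 and HT vehicle female 3, so it rests in large part on those libraries. In WT the Auts2 r was -0.86 (exact permutation p = 0.00625, adjusted 0.0143; rho -0.81, exact permutation p = 0.0218, adjusted 0.0508) and -0.81 without males 1 and 3. Cntn2 rose with Tbr1 in both genotypes, with an r of 0.76 in HT (permutation p = 2e-05, adjusted 0.00021; rho 0.67, permutation p = 0.00135, adjusted 0.00781) and 0.62 without the same libraries. In WT the Cntn2 r was 0.92 (exact permutation p = 0.00107, adjusted 0.00373; rho 0.93, exact permutation p = 0.00223, adjusted 0.00781) and 0.99 without males 1 and 3. For Grin2b, Cdh8 and Cask no relation passed in either genotype, with r between -0.48 and 0.46. These r pool the sexes, and WT Tbr1 was 3154 ± 189.5 in females and 2579 ± 454 in males (mean ± SD, n = 4 each). With values centred on the 8 groups, the WT r was -0.68 for Reln (permutation over all pairings, adjusted p = 0.106; rho -0.69), -0.75 for Auts2 (0.0548; rho -0.50) and -0.56 for Ntng1 (0.232; rho -0.71). It was 0.84 for Cntn2 (the same permutation, adjusted p = 0.0197; rho 0.62, adjusted 0.179) and 0.86 for Grin2b (0.00854; rho 0.86, adjusted 0.0375). These pairings crossed the sexes after each sex had been centred on its own mean. The p-values of centred values are therefore not exact and are too small, and the Grin2b relation in WT passed only there.

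Markers of neighbouring tissue and of other cells moved with the same members. Over 29 libraries, with values centred on group means, Reln followed the mean of the olfactory list with an r of 0.90 (permutation p adjusted over 96 relations 8e-05; rho 0.92; 0.90 without the 2 farthest libraries), the thalamic list with 0.89 and the Cajal-Retzius list with 0.90. Ntng1 followed them with 0.86, 0.88 and 0.93, and Auts2 with 0.75, 0.76 and 0.73. The adjusted permutation p was 0.000137 for Auts2 with the Cajal-Retzius list and 8e-05 for the others, which rests on the smallest p that 100000 resamples can give. Over these 9 relations rho lay between 0.72 and 0.92, and r without the 2 farthest libraries between 0.69 and 0.91. The interneuron list also went with Reln (0.76), Ntng1 (0.76) and Auts2 (0.62; adjusted permutation p = 0.00165). Microglia markers ran opposite to Reln (-0.53; adjusted permutation p = 0.00963) and Ntng1 (-0.60; 0.00234). So did endothelial and mural markers to Ntng1 (-0.49; adjusted permutation p = 0.0174) and myelin markers to Auts2 (-0.45; 0.0368). Tbr1 went the other way, at -0.62 with the olfactory (adjusted permutation p = 0.000816), -0.67 with the thalamic (0.000300) and -0.64 with the Cajal-Retzius list (0.000606), and at 0.72 with layer 5 (0.000192). The lists share genes: Calb2 stands in the thalamic and Cajal-Retzius lists, and Ndnf in the interneuron and Cajal-Retzius lists. All genes of the 3 lists were measured; Lhx5 of the Cajal-Retzius list was at 0 in some libraries of every group.

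Cntn2 moved most with other lists. Its r was 0.85 with the oligodendrocyte and myelin list (permutation p adjusted over 96 relations 8e-05; rho 0.85; 0.80 without the 2 farthest libraries), 0.70 with the striatal list (0.000137), 0.68 with layer 6 (0.000339) and -0.72 with upper layers (8e-05). It also had an r of 0.68 with layer 5 (adjusted permutation p = 0.000373), -0.47 with astrocytes (0.0312) and -0.43 with the Cajal-Retzius list (0.0473). Tbr1 itself had an r of 0.57 with the myelin list (adjusted permutation p = 0.00443), 0.48 with layer 6 (0.0223), -0.54 with upper layers (0.00830) and -0.61 with astrocytes (0.00196). Summed myelin markers ran from 73390 to 136358 in WT vehicle, from 61439 to 123357 in HT vehicle, from 73209 to 155999 in HT fluoxetine and from 86655 to 133297 in HT lithium. Cdh8 was higher with upper-layer markers (0.57; adjusted permutation p = 0.00452) and lower with layer 6 (-0.60; 0.00224) and thalamic (-0.62; 0.00221) markers. It was also lower with interneuron (-0.54; adjusted permutation p = 0.00894) and myelin (-0.48; 0.0224) markers and higher with microglia (0.52; 0.0129). Grin2b and Cask had no r above 0.43 in size with any list, but some of their relations passed. Grin2b had an r of -0.43 with the Cajal-Retzius list (adjusted permutation p = 0.0373). By rank, Grin2b passed with layer 5 (rho 0.48; adjusted permutation p = 0.0280), thalamic (-0.45; 0.0405) and Cajal-Retzius (-0.45; 0.0405) markers. Cask passed by rank with interneuron markers (rho 0.52; adjusted permutation p = 0.0147). The p-values of this paragraph carry the limit of free shuffling given above. The calls of Grin2b and Cask, and that of Tbr1 with layer 6, are therefore not firm.

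**Figure D5:**
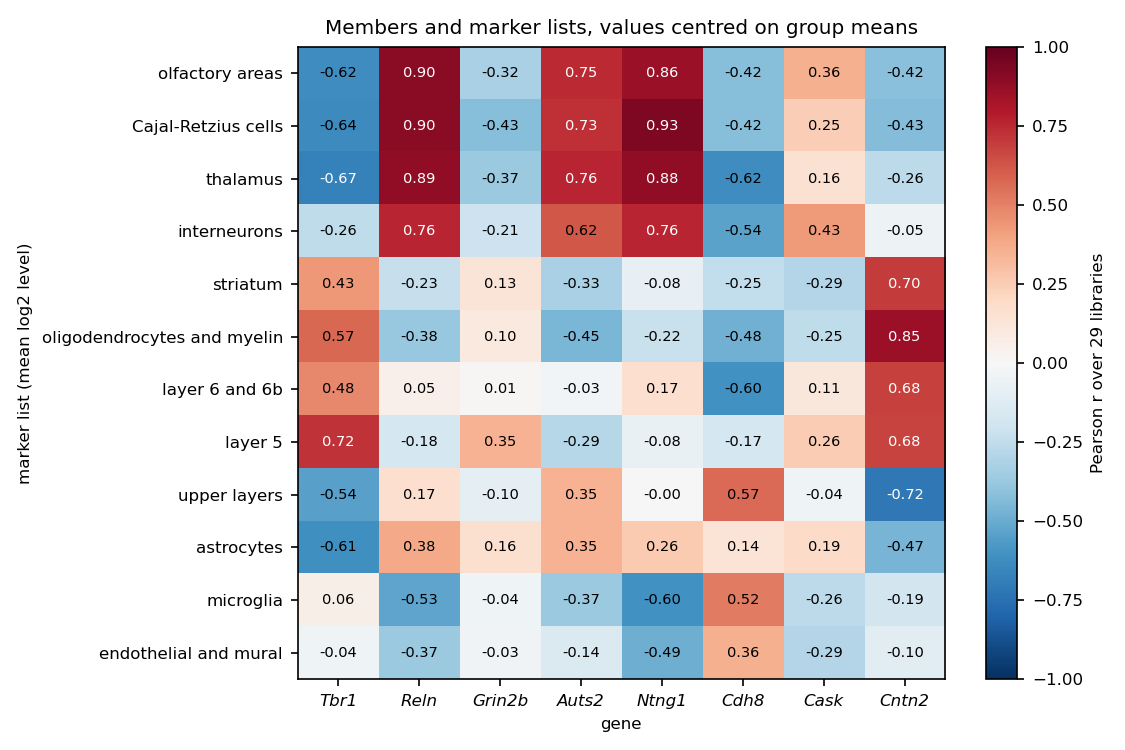
Pearson r over 29 libraries between the log2 level of each gene and the mean log2 level of 12 marker lists, both centred on the group means; red is positive and blue negative. Reln, Ntng1 and Auts2 are positive with olfactory, Cajal-Retzius, thalamic and interneuron lists (0.62 to 0.93), where Tbr1 is negative, and Cntn2 is highest with myelin (0.85).

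The slopes on Tbr1 were refitted with these marker means as covariates. With the striatal and olfactory means, limma called 2 of 7 members beside 11.7% of all genes: Reln was at -0.54 (adjusted p = 0.0191) and Cntn2 at 0.76 (0.00184), while Ntng1 was at -0.57 (0.0832) and Auts2 at -0.18 (0.335). With the thalamic mean, chosen after the data were seen, Reln was at -0.42 (limma adjusted p = 0.118), Ntng1 at -0.23 (0.545) and Auts2 at -0.16 (0.361), Cntn2 was at 1.26, and Cdh8 passed in the negative direction at -0.46 (0.0461). With the myelin mean Cntn2 was at 0.50 (limma adjusted p = 0.00284) and Cdh8 passed at 0.44 (0.0415), as it did with the layer 6 mean, chosen after the data were seen (0.40; 0.0215). Without the 9 libraries with high striatal or olfactory markers, Cntn2 alone passed (0.997; limma adjusted p = 0.0176), beside 6.14% of all genes, with Reln at -0.84 (0.135). Cntn2 passed in all 47 alternatives tried. How much of each slope follows the tissue piece taken was not tested further.

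Members also moved with each other. Of 21 pairs, 5 passed at an adjusted permutation p under 0.05 over 29 libraries, with values centred on group means. The libraries were again shuffled freely after centring, so these p-values are too small. The share among pairs of all genes was not determined, so this count cannot be set against it. On the slope with Tbr1 alone, limma called 24.9% of all genes. Reln and Ntng1 had an r of 0.93 (adjusted p = 0.000105; rho 0.92; 0.91 without the 2 farthest libraries), Reln and Auts2 0.83 (0.000105; rho 0.81; 0.77) and Auts2 and Ntng1 0.71 (0.00014; rho 0.69; 0.64), each by permutation. Reln and Cntn2 (r -0.49, rho -0.49, permutation adjusted p = 0.0368, -0.31 without the 2 farthest) and Ntng1 and Cdh8 (r -0.46, rho -0.47, permutation adjusted p = 0.0480, -0.40) went in opposite directions. With p-values that near to 0.05, the calls of these last pairs are not firm. The spread within groups also differed between members. The SD of log2 values was 0.32 for Ntng1, 0.28 for Reln and 0.21 for Cntn2, above at least 97.2% of genes within 1 log2 unit of their level. It was 0.14 for Cdh8 (above 87.8%), 0.14 for Grin2b (87.4%), 0.11 for Auts2 (77.4%) and 0.06 for Cask (18.2%).

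The genes whose level followed each member most closely were ranked by Pearson r over the 29 libraries after centring on group means, among genes with a mean value of at least 50, as a description. For Tbr1 they were Mmp17, Vxn and Nfe2l1 (0.97 each), and for Reln Grip1, Map3k1 (0.97 each) and Dlx6os1 (0.96). For Ntng1 they were Tmem255a, Ttc39c and Tcp11l2 (0.94 to 0.95), for Auts2 Nbeal2, Clcn1 and Ttc28 (0.86 to 0.88), and for Cntn2 Myrf, Kazn and Fnbp1 (0.92 to 0.94). Grin2b went with Mycbp2, Kcnj6 and Ank2 (0.95 to 0.96), Cdh8 with Nwd2, Rgs4 and Mef2c (0.83 to 0.86), and Cask with Zfp148 (0.82) and Dennd5b (0.79). The points share library, depth and tissue piece.

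Genes that act with the members were read from lists. In the Cask complex list, 1 of 11 genes was called between HT vehicle and WT vehicle, Caskin1, a binding partner of Cask, beside 0.207% of all genes. It stood at 4971 ± 306 (SD, n = 8) in WT vehicle and 5551 ± 260.4 (n = 6) in HT vehicle, a difference of 0.16 ± 0.03 (log2, SE; limma adjusted p = 0.0487) that passed in 18 of 48 alternatives. It was lost, among others, without the 9 libraries with high markers (limma adjusted p = 0.556) and with edgeR. For the mean of the 3 HT groups Caskin1 (0.13; limma adjusted p = 0.0129) and Lin7b, which sits in the same scaffold (0.18; 0.0445), were higher, 2 of 11 with 0 lower, beside 1.93% of all genes. In the Tbr1 network list, Fezf2, a transcription factor of layer 5 projection neurons, was the only gene of 16 called for that mean, at 0.46 ± 0.09 (limma adjusted p = 0.00805), with 615 ± 137 (SD) in WT vehicle. The HT levels were 792 ± 109 with vehicle, 803 ± 125 with fluoxetine and 915 ± 90.3 with lithium. Lrrc4, a postsynaptic ligand of the netrin-G family, was the only one of 4 in its list (0.13; limma adjusted p = 0.0294). For that mean, Caskin1 and Fezf2 passed in 47 of 48 alternatives, Lrrc4 in 41 and Lin7b in 23, and all 4 were lost without the 9 libraries with high markers. In the other 5 lists no gene passed either comparison, and no gene of any list passed for a drug against vehicle in HT. Medians of the 8 lists lay between -0.03 and 0.07 for HT vehicle against WT vehicle, against 0.00 for all genes.

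The genes closest to the threshold in the remaining lists fell short of it for HT vehicle against WT vehicle, the comparison of all values in this paragraph. Grin1, the obligatory NMDA receptor subunit, was at 0.14 ± 0.03 (limma adjusted p = 0.0715), and Grin3a at -0.07 ± 0.05 (0.673). Itgb1, an integrin subunit reported to bind reelin, was at -0.16 ± 0.04 (limma adjusted p = 0.0670) and Src, a kinase of the pathway, at 0.11 ± 0.04 (0.192). Cdh22 was at 0.17 ± 0.05 (0.130) and Cdh24 at -0.23 ± 0.09 (0.300), both type II cadherins, by the same test. Fbrs and Fbrsl1, relatives of Auts2, were at 0.09 ± 0.04 (limma adjusted p = 0.375) and 0.07 ± 0.04 (0.459), and Cntn6 and Cntn5 at -0.16 ± 0.07 (0.341) and -0.09 ± 0.09 (0.751). In the Tbr1 network, Tspyl2, reported to bind Tbr1 and Cask, was at 0.11 ± 0.03 (limma adjusted p = 0.130).

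On the slope with Tbr1, the Tbr1 network list had 10 genes of 16 higher and 2 lower, with a median of 0.55 against -0.02 for all genes, beside 13.5% of all genes higher and 11.4% lower. Its genes named here were chosen after their values were seen: Neurod2 (0.94 ± 0.10; limma adjusted p = 2.03e-07), Fezf2 (1.16 ± 0.13) and Tle4 (1.18 ± 0.18), factors of cortical projection neurons, were higher with Tbr1, and Eomes (-5.94 ± 1.72; 0.0124) and Bcl11a (-0.29 ± 0.10; 0.0317) were lower. Eomes is also in the olfactory list, Fezf2 and Bcl11b are in the layer 5 list, and Tle4 and Foxp2 are in the layer 6 list. In the other lists the called counts were 3 higher and 2 lower of 11 for the reelin pathway, 2 and 1 of 5 tested for NMDA subunits, 1 and 3 of 11 for the Auts2 complex, 2 and 0 of 4 for the netrin-G family, 3 and 1 of 11 for type II cadherins, 3 and 1 of 11 for the Cask complex, and 1 and 0 of 5 for contactins, beside 24.9% of all genes. With the striatal and olfactory means as covariates, and 11.7% of all genes called, the Tbr1 network had 7 higher and 0 lower. The reelin pathway, NMDA and contactin lists then had 1 higher and 0 lower each, the netrin-G family and type II cadherins 2 and 0 each, the Auts2 complex 0 and 1, and the Cask complex 1 and 1. Named after their values were seen, the reelin receptor gene Lrp8 (-0.57 ± 0.13; limma adjusted p = 0.00225) was lower with Tbr1 as Reln was, the paralog Ntng2 (1.07 ± 0.14; 5.41e-06) ran opposite to Ntng1, Grin2a (0.59 ± 0.12; 0.000599) was higher, and Cdh9 had a slope of 2.18 ± 0.19 (1.07e-08).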

How the data were processed

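The deposited table gives a signal per gene and library, read counts that the authors divided by a size factor per library, as the values themselves show: in every library 100% were whole multiples of 1 step within 0.0001. The submitters' processing notes name Salmon 0.11.2, R 3.6.0, DESeq2 1.19.11 and GRCm38, without their role. Names and positions came from GENCODE M21 (GRCm38), which matched 18227 of 18240 rows.

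Values were tested as log2(value + 1) with limma 3.58.1 (R 4.3.3) on all 29 libraries, with a mean for each of 8 groups, 21 residual degrees of freedom, an intensity trend, two-sided, and Benjamini-Hochberg adjustment over the 17881 genes with at least 10 in at least 3 libraries, at a threshold of 0.05. Comparisons of pooled sexes average the 2 within-sex differences. Relations over libraries used 100000 resamples, or all 40320 pairings in WT. Where values had been centred on group means, the shuffling ignored the groups, which makes those p-values too small. The limma procedure was tested on simulated data. Alternatives were other scalings, pseudocounts, filters, moderation, library weights, sex or replicate terms, marker covariates, edgeR 4.0.16 and DESeq2 1.42.0 on recovered reads, and leaving out each library.

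The members and lists were chosen with earlier results of these data known. Named were Tbr1, the members, every list gene past the threshold for HT vehicle against WT vehicle, a drug against HT vehicle or the mean of the HT groups (at most 4 per list), or else the 2 with the smallest p for HT vehicle against WT vehicle, and the 3 most alike genes, of which 1 is not reported here.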

Additional observations from a re-analysis of the deposited data

Results flagged for a closer look

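Among 32 checks of a gene within a group, 4 had a highest or lowest library apart from the rest, where chance gives about 1 in 20. Tbr1 in HT fluoxetine female 1 was 2858, below the other 7 libraries of its group and inside the WT range. The same library had the highest Reln, Auts2 and Ntng1 of HT fluoxetine. Grin2b in HT fluoxetine male 4 was 12317, the lowest of 29 libraries, in the library whose differences fell most with exon length. Grin2b in HT vehicle female 3 was 18032, below the other 5 libraries of its group. Cdh8 in HT lithium male 3 was 1449, above the other 6.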

How the results depend on the processing

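The count of members called for the mean of the 3 HT groups against WT vehicle went from 0 to 1 (Cdh8) with the myelin or the layer 6 marker mean as covariate and with DESeq2, and ranged from 0 to 1 over left-out libraries. For the female minus male difference of fluoxetine it went from 0 to 1 (Cask) with DESeq2, which called 56 genes higher and 142 lower there against 1 and 18 with limma. For the slope on Tbr1 the count went from 4 to 2 with the striatal and olfactory means, to 2 with the thalamic mean and to 1 without the 9 libraries with high markers, and ranged from 3 to 5 over left-out libraries. It was 5 with the myelin or the layer 6 mean, where Cdh8 joined, and 5 without HT fluoxetine male 4, where Grin2b did, and 3 without HT fluoxetine female 1. The slope of Cdh8 turned from 0.08 to -0.46 with the thalamic mean and was 0.44 and 0.40 with the myelin and the layer 6 mean. The cause of these changes was not tested. All other alternatives left the counts of members as they were.

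Replicate numbers did not pair the libraries: same-numbered libraries deviated with a median correlation of -0.01, against 0.00 for different numbers. The library names number the 3 HT vehicle female libraries 2 to 4 where the titles have 1 to 3. By those numbers the medians were -0.00 and 0.00, and the block, added after the data were seen, again called 4 members on the slope and 0 in every group comparison, with 52 higher and 21 lower over all genes for HT vehicle against WT vehicle. With the replicate number as a block, 4 members were called on the slope and 0 in every group comparison, and over all genes the calls for HT vehicle against WT vehicle went from 29 higher and 8 lower to 62 and 20. The same count was 138 and 74 with DESeq2, 100 and 48 with the striatal and olfactory means, 97 and 54 with the layer 6 mean, 45 and 19 with the thalamic mean, 6 and 2 with only the groups compared, 16 and 2 with sex as an additive term and 0 without the libraries with high markers (1345 at an unadjusted p under 0.05). Without HT fluoxetine female 1 it was 42 and 16, and without WT vehicle male 3 it was 17 and 4. For the mean of the 3 HT groups the 240 higher and 105 lower became 370 and 153 with DESeq2, 364 and 159 with the layer 6 mean, 126 and 56 with the thalamic mean, 27 and 11 without the 9 libraries, 385 and 158 without HT fluoxetine female 1 and 113 and 42 without WT vehicle male 3. For the slope the 2405 and 2044 became 1384 and 709 with the striatal and olfactory means, 1596 and 882 with the thalamic mean, 1545 and 1099 without HT fluoxetine female 1 and 843 and 254 without the 9 libraries. For HT lithium against WT vehicle the 238 and 102 became 407 and 181 with DESeq2 and 20 and 6 without the 9 libraries, and for HT fluoxetine against WT vehicle the 26 and 8 became 75 and 21, 2 and 1, and, with only the groups compared, 0 and 0 (1417 at an unadjusted p under 0.05). For lithium against vehicle in HT, DESeq2 called 24 and 8 where limma and edgeR called 0, with 2030 genes at an unadjusted p under 0.05 in limma. The slope was not refitted with only the groups compared, nor the comparisons by sex with sex as an additive term.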
